A study of Mus musculus with 2 samples.

Results

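The genes described here are 10 that mark complement-producing and lipid-handling macrophages: C1qa, C1qb, C1qc, Apoe, Trem2, Gpnmb, Spp1, Lpl, Fabp5 and Cd36. They were taken by symbol, not by any measured value, from the 32432 genes counted in the series, and their unique molecular identifier (UMI) counts were followed through the monocytes and macrophages of mouse B16-F10 melanomas. All 10 passed the filter on low counts in every comparison below.

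C1qa, C1qb and C1qc encode the A, B and C chains of C1q, the recognition molecule that starts the classical complement pathway, and tissue macrophages are a main source of it. Apoe, Trem2, Gpnmb, Spp1, Lpl, Fabp5 and Cd36 are often seen together in lipid-associated macrophages, cells that take up lipoproteins, fatty acids and cell debris in fat tissue, plaques and tumours. Apolipoprotein E carries cholesterol out of the cell and as part of lipoproteins, TREM2 is a surface receptor that binds lipids and signals through the adaptor Tyrobp, and GPNMB is a membrane glycoprotein of lysosome-rich macrophages and of melanocytes. Spp1 encodes the secreted glycoprotein osteopontin, lipoprotein lipase (Lpl) releases fatty acids from triglyceride, CD36 is a scavenger receptor that takes them up, and FABP5 carries them inside the cell.

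The study compared leukocytes of melanomas from male mice of 8 to 12 weeks in which the exonuclease gene Trex1 was deleted after tamoxifen with those of controls. The labels give the deleted group (iKO) as Trex1 fl/fl-R26CreERT2-ki/wt and the control group as Trex1 wt/fl-R26CreERT2-ki/wt, so the controls carried the inducible Cre too and 1 floxed Trex1 allele, and were not wild type. CreERT2 from the R26 locus is not limited to a cell type. Every mouse received 1000 B16-F10 cells, a mouse melanoma line, in Matrigel in the skin, and 1 mg of tamoxifen a day for 3 days from day 5. Tumours were taken at day 14, and live CD45+ cells were sorted, which keeps leukocytes of all kinds although the label calls them lymphocytes. Each genotype was 1 pool of 4 samples marked by hashtag antibodies and run in the 10x Genomics 3′ assay. An effect of the pool and one of the deletion therefore cannot be told apart. The labels do not say that a hashtag stands for 1 mouse, and p-values measure the spread between these samples.

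The 8 samples held 1362 to 6117 barcodes and 17111065 to 96457227 UMIs. After quality filters 22052 of 23731 barcodes were kept. No barcode was shared between samples of the same pool, and 45 were shared across the pools. The deleted gene could not be checked, since Trex1 had 2 UMIs over all kept cells, both in control sample 2. Among the deleted samples, 1 and 2 stood apart from 3 and 4: the chi-square per degree of freedom between summed profiles was 25.5 for samples 1 and 2 and 8.15 for samples 3 and 4, against 105 to 238 across those pairs, and 23.0 to 109 among the controls. Several members followed that division, and their values are given sample by sample.

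Cells were assigned from fixed marker panels that hold none of the 10 genes, after each cell was thinned to 2000 UMIs. The monocyte or macrophage class had 8018 cells, 5502 iKO and 2516 control, with median depths of 15203.5 and 14398.5 UMIs per cell. Within it, cells were put in order into gates by at least 2 UMIs of their markers. The Arg1-positive gate had 239 iKO and 454 control cells, and the Cxcl9/Cxcl10-positive gate, named for interferon-induced chemokines, had 1721 and 241. The Vcan/Chil3 monocyte gate had 763 and 693 cells, and the Ms4a7/Adgre1 macrophage gate had 715 and 282. Some samples held few cells of a gate. The Cxcl9/Cxcl10-positive cells numbered 762, 735, 68 and 156 in iKO samples 1 to 4. In controls 1 to 4 they numbered 104, 28, 32 and 77. The Ms4a7/Adgre1 gate had 34, 46, 80 and 122 cells in controls 1 to 4. The Arg1-positive gate had 33 to 87 cells in iKO and 45 to 277 in control samples. The shares of these gates differed between samples: Cxcl9/Cxcl10-positive cells made up 44.6%, 36.5%, 11.7% and 13.02% of the class in iKO samples 1 to 4, and 5.62% to 19.6% in controls. Arg1-positive cells made up 3.34% to 5.67% in iKO and 7.91% to 26.01% in control samples. A further 1971 iKO and 803 control cells of the class met the cut of no gate. Levels are given as CPM, the UMIs of a gene in a gate of 1 sample divided by all UMIs of that gate and scaled to 1000000.

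The sequences in front of 4 members are shown because the levels of C1qb and C1qc, and those of Apoe and Trem2, were closely correlated across the gates. They are the 250 bases before the RefSeq start in build GRCm38.p6, 5′ to 3′ on the gene's strand, with motif letters found on either strand in capitals. C1qb lies at chr4:136886201-136886450 and C1qc at chr4:136892915-136893164, both on the minus strand, and C1qa, C1qc and C1qb are neighbouring protein-coding genes. Apoe lies at chr7:19699189-19699438 on the minus strand, for the start listed first of its 3, and Trem2 at chr17:48346151-48346400 on the plus strand.
C1qb: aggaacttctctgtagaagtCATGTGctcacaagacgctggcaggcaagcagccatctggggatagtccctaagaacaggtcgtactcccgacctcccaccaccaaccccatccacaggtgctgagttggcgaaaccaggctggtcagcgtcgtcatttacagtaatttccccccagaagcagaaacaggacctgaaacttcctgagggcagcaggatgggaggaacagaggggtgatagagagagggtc
C1qc: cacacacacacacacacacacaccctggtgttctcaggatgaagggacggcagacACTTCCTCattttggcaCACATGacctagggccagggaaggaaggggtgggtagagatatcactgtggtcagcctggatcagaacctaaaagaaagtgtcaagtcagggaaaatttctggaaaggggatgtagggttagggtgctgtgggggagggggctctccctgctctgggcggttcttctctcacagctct
Apoe: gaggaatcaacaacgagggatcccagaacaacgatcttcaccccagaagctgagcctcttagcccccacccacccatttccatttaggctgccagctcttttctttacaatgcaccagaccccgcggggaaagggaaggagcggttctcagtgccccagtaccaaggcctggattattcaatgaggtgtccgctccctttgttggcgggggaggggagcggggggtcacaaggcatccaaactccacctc
Trem2: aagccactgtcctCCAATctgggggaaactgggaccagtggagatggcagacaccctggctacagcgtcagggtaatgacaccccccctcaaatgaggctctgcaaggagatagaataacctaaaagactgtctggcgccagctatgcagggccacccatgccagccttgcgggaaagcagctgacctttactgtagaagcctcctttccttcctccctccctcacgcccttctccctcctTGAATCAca

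The motifs searched were PU.1-type GAGGAAGT, MAF half-site TGCTGAC, E-box CACGTG, M-box CATGTG, the interferon-stimulated response element, AP-1 TGANTCA, the CCAAT box CCAAT and the TATA box TATAAA. C1qb and C1qc each held the M-box, a form of the site bound by MiT-family factors, at positions -230 to -225 and -178 to -173 from the start, as did 12.3% of all 32851 promoters of that length. C1qc also held the PU.1-type motif, for the myeloid factor PU.1, at -195 to -188, as did 2.44% of promoters. Trem2 held the AP-1 motif at -9 to -3 (6.75% of promoters) and a CCAAT box at -237 to -233 (33.8%), and none of these letters occurred in the Apoe window shown. The window of the second Apoe start listed held TATA box letters in both orientations, between -100 and -91. These matches describe letters, not sites in use. The bases checked after the listed C1qb start were not found in a GENCODE transcript of the gene, while those of C1qc, Apoe and Trem2 were. The C1qb positions therefore rest on the RefSeq start alone. Of the 10 members 7 had an entry in the table.

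Among the 4 tested gates, the C1q genes were lowest in the Vcan/Chil3 monocytes and highest in the Ms4a7/Adgre1 macrophages. C1qa stood at 77.0, 125, 159 and 121 CPM in the Vcan/Chil3 monocytes of iKO samples 1 to 4 and at 146, 156, 179.9 and 389 in controls 1 to 4. The Ms4a7/Adgre1 macrophages of the same samples had it at 1885, 1575, 2939 and 1767 in iKO and at 3603, 2259, 2123 and 1849.9 in controls. No sample's monocytes reached the level of any sample's macrophages. Arg1-positive cells had 483 to 779.8 in iKO and 205 to 841 in control samples, below every macrophage value. Against the monocytes of the same samples, C1qa was higher by 3.74 ± 0.29 on the log2 scale (SE) in the Ms4a7/Adgre1 gate, by 2.87 ± 0.28 in the Cxcl9/Cxcl10-positive gate and by 2.04 ± 0.28 in the Arg1-positive gate (edgeR quasi-likelihood test with sample as a block, adjusted p = 2.3e-11, 7.2e-09 and 5.0e-07). C1qb and C1qc did the same, at 3.32 and 3.71, 2.53 and 2.86, and 2.02 and 2.16.

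**Figure D1:**
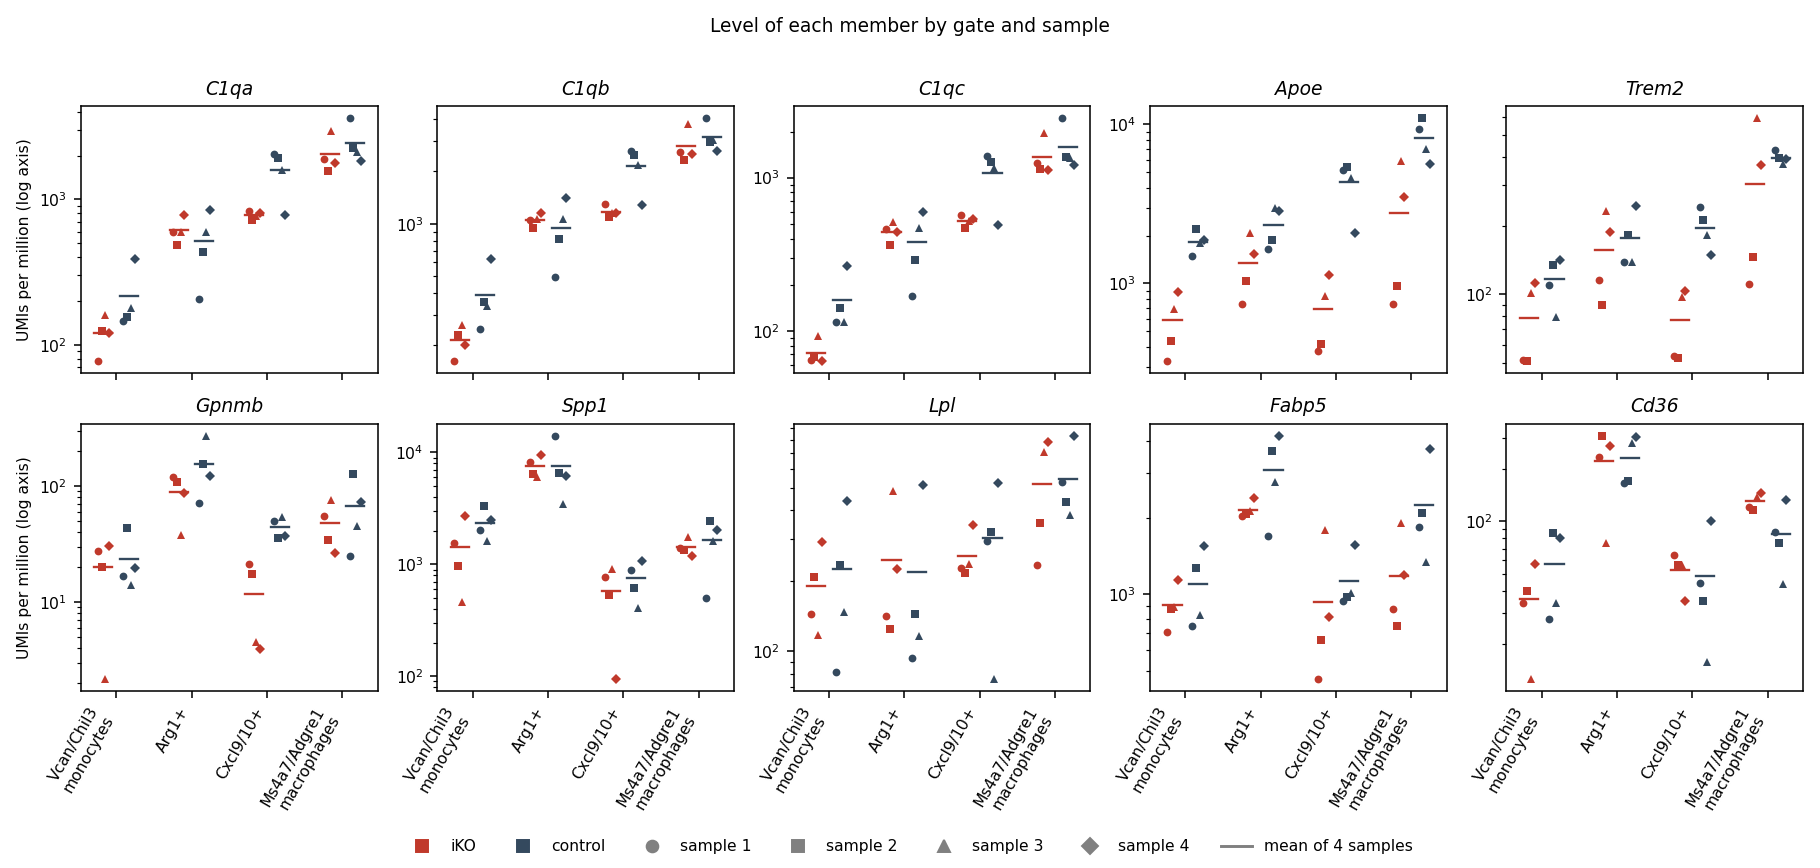
Level of each of the 10 genes in 4 gates of the monocyte or macrophage class, in CPM on a log axis whose range differs by gene; each point is 1 sample (shape gives the sample number, colour the genotype) and each bar the mean of 4. The C1q genes are lowest in Vcan/Chil3 monocytes and highest in Ms4a7/Adgre1 macrophages, Spp1, Gpnmb, Fabp5 and Cd36 are highest in the Arg1-positive gate, and the iKO points for Apoe lie below the control points in the monocytes and the Cxcl9/Cxcl10-positive gate.

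Across the members, each subset had its own profile. The Ms4a7/Adgre1 macrophages were higher than the monocytes in 9 of the 10 genes, where 46% of all 8854 genes tested were called in either direction and 22.6% were higher. Trem2 was higher by 1.74 ± 0.17, Apoe by 1.98 ± 0.26, Lpl by 1.32 ± 0.23 and Cd36 by 1.28 ± 0.26, while the Spp1 difference of -0.28 ± 0.35 missed the threshold (adjusted p = 0.55). The Arg1-positive cells were also higher in 9 of 10, with 42.7% of genes called in either direction and 22.4% higher, and here the large differences were those of Gpnmb (2.60 ± 0.34), Cd36 (2.57 ± 0.26), Spp1 (2.25 ± 0.36) and Fabp5 (1.59 ± 0.16). Lpl did not pass, at 0.26 ± 0.23. For the Cxcl9/Cxcl10-positive cells 5 of 10 were called, beside 26% of all genes and 13.5% higher: the C1q genes and Apoe (0.79 ± 0.25, adjusted p = 0.020) rose, and Spp1 fell by 1.45 ± 0.36. The Apoe call in that gate was lost without control sample 1 (adjusted p = 0.076) or control sample 3 (0.072). In the iKO samples alone neither passed, with Apoe at 0.24 (0.54) and Spp1 at -1.20 (0.11). Fitted within iKO samples alone, the Arg1-positive, Cxcl9/Cxcl10-positive and Ms4a7/Adgre1 gates had 9, 3 and 7 members called, beside 34.7%, 23% and 41.7% of all genes. Control samples alone gave 8, 6 and 8, beside 20.3%, 9.03% and 16.6%. Whether these differences from the monocytes differ between the genotypes was not tested.

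Spp1 separated the Arg1-positive cells from the chemokine-positive ones. It stood at 8138, 6481, 6087 and 9551 CPM in the Arg1-positive cells of iKO samples 1 to 4 and at 14004, 6616, 3429 and 6194 in those of the controls. Its Cxcl9/Cxcl10-positive level was 765, 537, 915 and 95.1 in iKO and at 898, 616, 411 and 1075 in controls. Every sample was higher in the first gate than any sample in the second, and in both gates the genotypes overlapped. Spp1 was detected in 69.0% ± 8.3 of iKO and 72.6% ± 11.2 of control Arg1-positive cells (SD, n = 4) at 2000 UMIs per cell. C1q and Spp1 UMIs were also found in the same cells. For these pairs a cell had to hold at least 2 UMIs after thinning of Spp1, of Arg1 or of the summed C1q genes. Within the Arg1-positive gate, cells with both occurred 0.652 to 1.14 times as often as the product of their shares in controls and 0.792 to 0.990 times in iKO. Over the whole class this ratio was 0.908 to 1.21 in controls and 1.27 to 1.70 in iKO, while Spp1 and Arg1 were found together 1.84 to 3.34 and 3.51 to 4.13 times as often as the product.

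The levels of the C1q genes were closely correlated. Over 32 sample-by-gate profiles, Pearson's r of log2(CPM + 1) was 0.994 between C1qa and C1qb, 0.993 between C1qa and C1qc, and 0.995 between C1qb and C1qc; profiles of a sample share its library, so these values are descriptions. In the class as a whole, the ratio of C1qa to C1qb UMIs was 0.628 to 0.742 in iKO and 0.626 to 0.746 in control samples. By gate the ratio was not fixed: it went from 0.416 in the Arg1-positive cells of control 1 to 0.893 in the Ms4a7/Adgre1 macrophages of control 1, and that of C1qc to C1qb from 0.292 in Vcan/Chil3 monocytes to 0.604 in Ms4a7/Adgre1 macrophages. Apoe and Trem2 formed a second pair (r = 0.905), and Gpnmb, Spp1, Fabp5 and Cd36 were alike among themselves (0.615 to 0.716). Lpl was closest to Trem2 (0.616), and Spp1 was unlike the C1q genes (-0.24 to -0.17). Among 5219 genes, the non-member most like the C1q genes was Hpgds, the haematopoietic prostaglandin D synthase (0.902 to 0.922). Mertk, a receptor for dying cells, was most like Apoe (0.906), Wwp1 most like Trem2 (0.915), Pmp22 most like Gpnmb (0.845), Adam8 most like Spp1 (0.875), Srm most like Lpl (0.839), Cdk4 most like Fabp5 (0.862) and Txndc17 most like Cd36 (0.891).

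**Figure D2:**
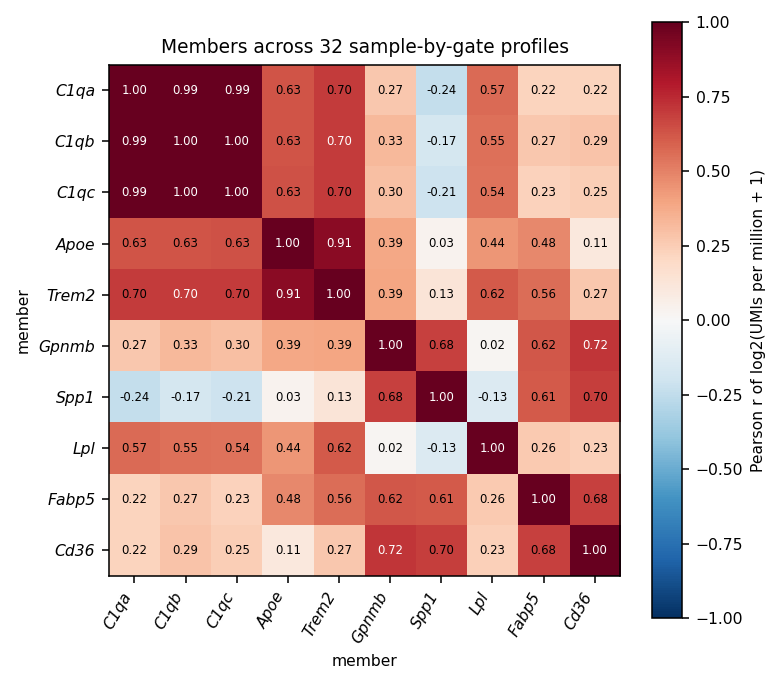
Pearson's r of log2(CPM + 1) between the 10 genes over 32 profiles, each the sum of 1 gate in 1 sample (4 gates, 8 samples); red is positive and blue negative on a fixed scale from -1 to 1. The C1q genes form a block at 0.99 or above, Apoe and Trem2 a pair at 0.91, and Gpnmb, Spp1, Fabp5 and Cd36 a further group.

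Between genotypes, 6 of 10 members fell in iKO in the Cxcl9/Cxcl10-positive gate (edgeR quasi-likelihood test, Benjamini-Hochberg adjusted p under 0.05), beside 7.53% of 7938 genes called and 3.21% called lower. They were the C1q genes, Apoe, Trem2 and Gpnmb. With 1 sample left out the count was 2 to 7 there, with 2 called without iKO 2, control 1 or control 2. In the Vcan/Chil3 monocytes 3 of 10 fell, C1qb, C1qc and Apoe, beside 8.41% of genes called and 3.61% lower, and 1 to 4 with 1 sample left out. In the whole class only Gpnmb fell, beside 11.8% called and 5.36% lower. In the Arg1-positive gate (0.691% of genes called), the Ms4a7/Adgre1 gate (2.39%) and the summed cells of whole samples (2.53%) edgeR called 0 members, with 2, 3 and 0 at an unadjusted p under 0.05. DESeq2 also called 0 in the Arg1-positive and Ms4a7/Adgre1 gates. These counts do not rank the gates, since no member passed the main test of a difference between gates given further on. The shares of cells that passed the gates' cuts also differed between samples, as given above. A genotype difference within a gate and a difference in which cells passed its cut cannot be told apart. The median member difference was -1.01 in the Cxcl9/Cxcl10-positive gate and -0.71 in the monocytes, against -0.02 and -0.01 over all genes tested. It was -0.02 in the Arg1-positive gate and -0.25 in the Ms4a7/Adgre1 gate, against -0.01 and -0.02.

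**Figure D3:**
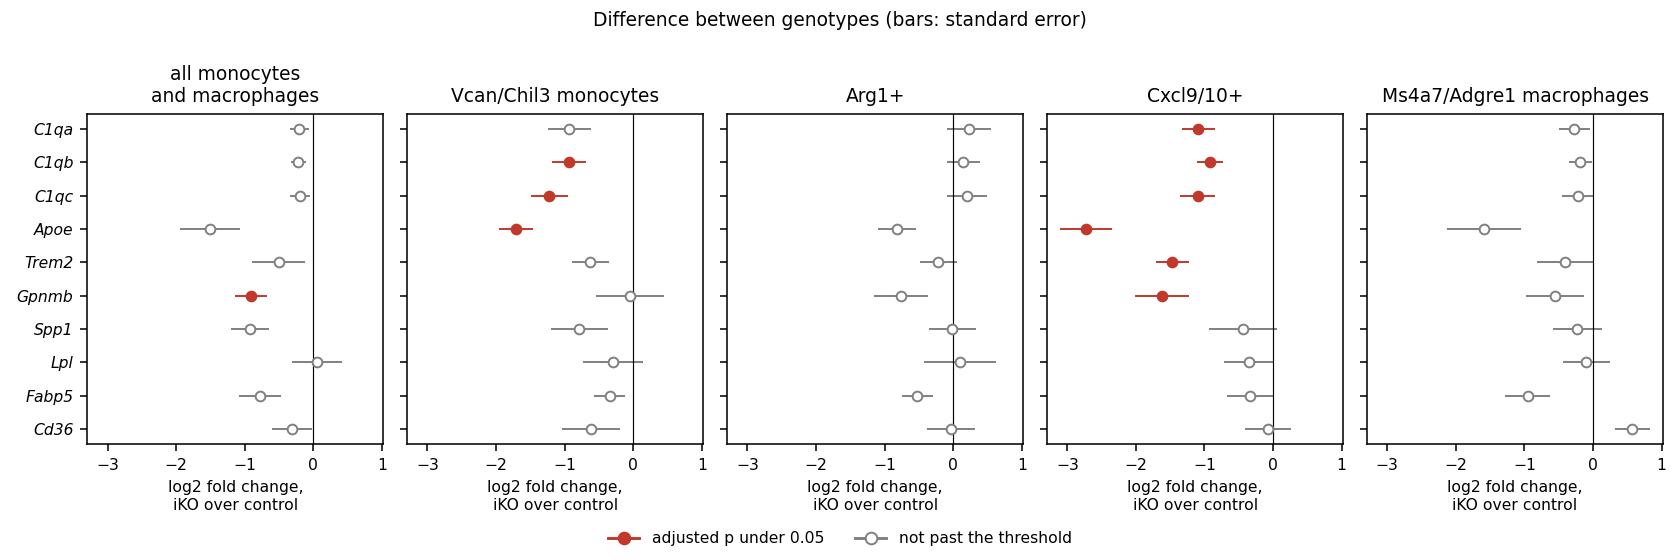
Log2 fold change of each gene, iKO over control, with its standard error, in the whole monocyte or macrophage class and in 4 gates; filled red points passed an adjusted p of 0.05 in edgeR's quasi-likelihood test and open grey points did not. In the Cxcl9/Cxcl10-positive gate 6 points are filled, in the Vcan/Chil3 monocytes 3, in the whole class 1, and in the other gates none.

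Of the members called in these gates, Apoe had the largest log2 difference in each of the 2 gates. Its level in the Cxcl9/Cxcl10-positive cells was 378, 414, 834 and 1125 CPM in the iKO samples, in order, against 5158, 5417, 4590.3 and 2079 in the controls. The groups did not overlap, as for 6% of genes that were lower in every iKO sample in that gate, and control 4 was the lowest control. Apoe fell by 2.73 ± 0.37 on the log2 scale (adjusted p = 0.0028), and the call held in all 17 alternatives run for that gate, with adjusted p-values up to 0.019. In the Vcan/Chil3 monocytes Apoe stood at 325, 438, 693 and 886 in iKO and at 1493, 2192, 1783 and 1864 in control samples, again without overlap (7.52% of genes). It fell there by 1.71 ± 0.25 (adjusted p = 0.0019), in all 19 alternatives (up to 0.0079).

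Of the 4 tested gates, the Ms4a7/Adgre1 macrophages had the highest mean Apoe level in each genotype and the widest spread among iKO samples. In iKO 1 their level was near that of the Arg1-positive cells (746 and 741), and in iKO 2 it was lower (959 and 1031). In the macrophages Apoe stood at 746, 959, 5924 and 3486 in iKO samples 1 to 4 and at 9305, 10886, 6948 and 5631 in control samples 1 to 4. Samples iKO 1 and iKO 2 lay far below every control, and iKO 3 lay within the control range. The difference of -1.59 ± 0.54 did not pass (adjusted p = 0.14), but passed without iKO 3 (-2.25, adjusted p = 0.024) and with no low-count filter (-1.52, 0.024). In the Arg1-positive cells it stood at 741, 1031, 2069 and 1541 in iKO and 1648, 1888, 2989 and 2834 in control samples, and the groups overlapped (-0.82 ± 0.28, adjusted p = 0.21; 0.0055 with a replicate block). In the whole class Apoe stood at 427, 509.6, 2047 and 1625 in iKO and 2858, 3989.5, 2964 and 2733 in control samples, without overlap (9.21% of genes), and missed the threshold (-1.51 ± 0.44, adjusted p = 0.054). It passed in 4 alternatives: without iKO 3 (-1.91, 0.023), with no low-count filter (-1.46, 0.032), by DESeq2 (-1.50, 0.023) and with a replicate block (-1.78, 0.036). Here and below, the replicate block matches iKO and control samples by number, although the numbers do not pair the samples.

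Apoe transcripts also appeared in cells that are not its main source, and with the same direction. T or NK cells held 16.4 to 28.8 CPM in iKO and 77.4 to 144 in control samples, and an Apoe UMI was found in 4.3% ± 0.7 of these cells in iKO and 21.2% ± 2.7 in control, after thinning (median depths before it 13267.5 and 6707). In the monocytes the shares were 34.0% ± 11.0 and 75.8% ± 2.3. Every control sample had a higher Apoe level in its monocytes than in its T or NK cells. The part of RNA from outside the cell in the differences was not tested. B cells had 352 to 607 in iKO and 391 to 719 in control samples, with overlapping groups.

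**Figure D4:**
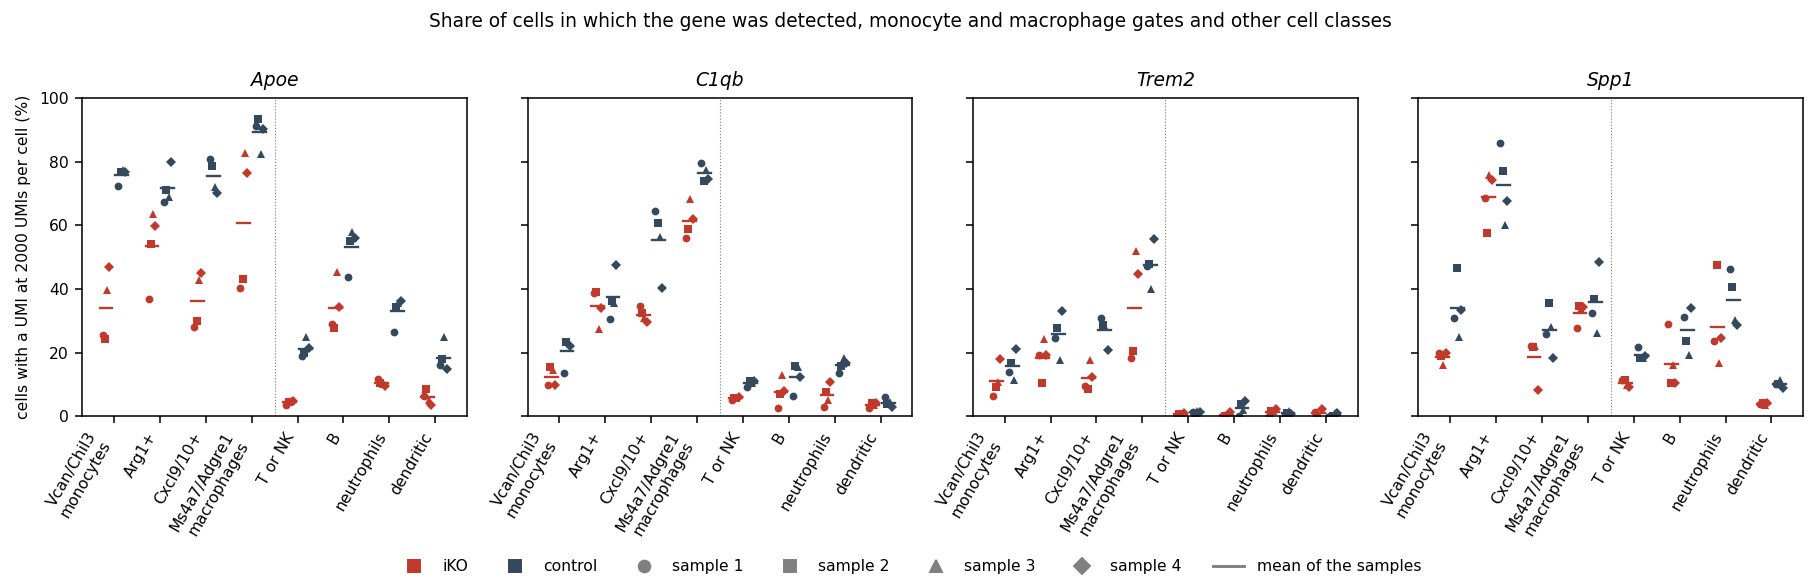
Share of cells with at least 1 UMI of Apoe, C1qb, Trem2 or Spp1 after every cell was thinned to 2000 UMIs, in 4 monocyte or macrophage gates and, right of the dotted line, in 4 other cell classes; points are samples and bars their mean. Apoe is found in more control than iKO cells of each class left and right of the line by mean share, Trem2 is near 0 in the other classes, and Spp1 is also found in neutrophils.

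Trem2 fell in the Cxcl9/Cxcl10-positive gate. It stood there at 53.8, 52.7, 97.6 and 104 CPM in iKO samples 1 to 4 and at 242, 212, 181 and 149 in controls, without overlap. The difference was -1.47 ± 0.24 (adjusted p = 0.0065), and it passed in all 17 alternatives, with adjusted p-values up to 0.037. Trem2 in the Ms4a7/Adgre1 macrophages stood at 111, 146, 591 and 367 in iKO and at 428, 397, 373 and 391.6 in controls. Here iKO 1 and 2 lay below all controls, iKO 3 above them all, and the mean difference did not pass (-0.41 ± 0.41, adjusted p = 0.64). In the monocytes the groups overlapped (50.8 to 112 and 79.6 to 141; -0.62 ± 0.27, adjusted p = 0.18). T or NK cells held 1.96 to 3.58 in iKO and 4.88 to 8.56 in controls.

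The C1q genes fell by about the same amount in the Cxcl9/Cxcl10-positive gate. C1qa stood at 828, 726, 763 and 803 CPM in iKO and 2060.0, 1923, 1598 and 784 in control samples, C1qb at 1299, 1097, 1153 and 1160.2 against 2628, 2471, 2183 and 1281, and C1qc at 573, 469.7, 518 and 536 against 1391, 1260.0, 1164 and 488. The iKO samples were close together, controls 1 to 3 lay above them, and control 4 lay at or near the iKO level. The differences were -1.09 ± 0.24, -0.92 ± 0.19 and -1.10 ± 0.25 (adjusted p = 0.022, 0.018 and 0.028). All 3 calls were lost without iKO 2 (adjusted p = 0.072, 0.064 and 0.088), without control 1 (0.064, 0.055 and 0.080) and without control 2 (0.061, 0.052 and 0.072); C1qa and C1qc were also lost without iKO 1 (0.053 and 0.060).

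In the Vcan/Chil3 monocytes the C1q genes were low. C1qc stood at 64.5, 67.2, 92.0 and 63.3 in iKO and at 114, 140.4, 114 and 267 in control samples, without overlap, and fell by 1.22 ± 0.27 (adjusted p = 0.016). C1qb stood at 163, 229.9, 262 and 201 against 248, 353, 338 and 626, and fell by 0.93 ± 0.25 (adjusted p = 0.041). C1qa differed by -0.93 ± 0.31 and missed the threshold (adjusted p = 0.089). It passed with no low-count filter (-0.91, 0.015), by DESeq2 (-0.92, 0.034), without control 1 (-1.09, 0.043) and with the stricter gate (-1.75, 0.0062). The C1qc call was lost without iKO 1 (adjusted p = 0.062) or iKO 2 (0.0501), and that of C1qb without any 1 of the 4 iKO samples or of controls 2, 3 and 4 (0.052 to 0.135); without control 4 the C1qb difference was -0.59. Both calls were also lost when cells were not thinned before gating, with C1qc at -0.66 (adjusted p = 0.10) and C1qb at -0.75 (0.085). In T or NK cells C1qb stood at 20.6 to 32.7 in iKO and 44.6 to 60.6 in control samples.

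Markers of other cells and of stress moved with these results. Cells with at least 2 UMIs of Ms4a7, Adgre1 and Mrc1 made up 3.65% to 12.6% of the iKO and 6.82% to 25.0% of the control Vcan/Chil3 monocytes. Of the Cxcl9/Cxcl10-positive cells they made up 15.8% to 22.4% in iKO samples and 32.7%, 28.6%, 31.25% and 14.3% in controls 1 to 4. Control 4, with the lowest share, was also the control whose C1q levels lay at or near those of iKO. The part of this share in the differences of that gate was not tested. With the macrophage-marker cells removed from the monocyte gate, C1qb, C1qc and Apoe fell by 1.15, 1.53 and 1.99 (adjusted p = 0.038, 0.0082 and 0.0013), beside 8.89% of genes called and 3.91% called lower. Dissociation stress genes (7, such as Fos and Hspa1a) summed to 4538 to 5687 CPM in the iKO and 6921 to 7287 in the control monocytes, and 3 of 7 fell. The neutrophil panel (7 genes) summed to 168 to 304 and 226 to 1028 there, and 2 of 5 tested fell. Without cells holding any UMI of a T or NK, B, neutrophil or dendritic panel gene, 4 members were called in the monocytes, with Apoe at -2.20, C1qa at -4.01 and C1qb at -3.56 (adjusted p = 0.00033, 0.011 and 0.0054), and C1qc as the other. That fit rested on 20 to 48 cells a sample and left out iKO 3 and control 2, which had 10 and 17 cells. Its cut was made on unthinned counts, where deeper cells are more likely to hold such a UMI and be left out. The share of all genes called in that fit is not given here, so its count of 4 has no background beside it. The part of stress genes in the results was not tested.

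In the Cxcl9/Cxcl10-positive gate the T or NK panel summed to 60.9 to 87.1 CPM in iKO and 37.3 to 60.3 in control samples, with 1 of 5 tested genes higher. The B cell panel summed to 4.62 to 8.64 and 10.3 to 25.7, with the 1 gene tested lower, and none of the 7 stress genes or the 3 neutrophil genes tested was called. Over the class 4 of 7 neutrophil genes, 2 of 7 stress genes, 1 of 10 dendritic and 1 of 4 B cell genes fell, and 1 of 3 endothelial genes rose. The part of these markers in the Cxcl9/Cxcl10-positive results was not tested.

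In the Arg1-positive and Ms4a7/Adgre1 gates the C1q genes did not pass the test. The Arg1-positive differences were 0.23 ± 0.32, 0.15 ± 0.24 and 0.20 ± 0.29 for C1qa, C1qb and C1qc (adjusted p = 0.81 to 0.85). For the Ms4a7/Adgre1 macrophages they were -0.27 ± 0.22, -0.18 ± 0.16 and -0.22 ± 0.23 (0.55 to 0.67). Over the whole class they were -0.20 ± 0.14, -0.22 ± 0.11 and -0.19 ± 0.14 (0.23 to 0.41). In the cells that met the cut of no gate, C1qa stood at 215 to 338 CPM in iKO and 405 to 825 in control samples. There C1qb stood at 336 to 684 against 729 to 1434, C1qc at 141 to 267 against 260 to 552, and Apoe at 338 to 913 against 1600 to 2739. The genotype difference in those cells was not tested. A difference that misses the threshold does not show equal levels.

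The difference between gates was tested itself, as the gate-by-genotype term against the Ms4a7/Adgre1 macrophages of the same samples. No member passed for the Arg1-positive, Vcan/Chil3 or Cxcl9/Cxcl10-positive gate by edgeR (lowest adjusted p = 0.97, 0.24 and 0.33), with 1, 4 and 7 of 10 at an unadjusted p under 0.05; 0%, 0% and 0.088% of all genes tested were called. For C1qb the term was -0.62 ± 0.18 in the Cxcl9/Cxcl10-positive gate (unadjusted p = 0.0034), and for Apoe -0.67 ± 0.30 (0.041). With no low-count filter, 2, 6 and 8 members passed for the Arg1-positive, Vcan/Chil3 and Cxcl9/Cxcl10-positive gates, with 1, 5 and 7 of these terms negative. The share of all genes called in those fits is not given here. By the main test the genotype differences of the members are not shown to differ between these gates. The number of members passing depended on the filter. Without the share of all genes, the counts with no filter cannot be read as a result about the members. The Arg1-positive gate was not tested against the Cxcl9/Cxcl10-positive gate.

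Gpnmb was counted at few UMIs. In the whole class it stood at 38.3, 33.8, 35.0 and 30.8 CPM in iKO samples 1 to 4 and at 38.0, 91.7, 54.8 and 70.4 in controls, with control 1 inside the iKO range. It fell by 0.91 ± 0.24 (adjusted p = 0.037). The call was lost when any 1 of the 8 samples but control 1 was left out (adjusted p = 0.057 to 0.093). It was also lost with a replicate block (0.057), without thinning before gating (0.051) and with clusters in place of the gate (0.072). Without cells holding a UMI of another leukocyte lineage the difference was -0.24 (0.66), over 67 to 226 cells a sample. Gpnmb in the Cxcl9/Cxcl10-positive gate stood at 21.3, 17.6, 4.50 and 3.96 in iKO and 49.7, 35.3, 53.6 and 37.1 in controls, without overlap, and fell by 1.62 ± 0.40 (adjusted p = 0.032). That call was lost without iKO 2 (0.065) or without any 1 control (0.058 to 0.117). Gpnmb is also a melanocyte gene, and the part of tumour RNA in these values was not tested. The 5 melanocyte markers summed to 13.2 to 18.7 in iKO and 5.77 to 12.1 in controls over the class, and without cells holding a melanocyte UMI the 2 differences were -0.85 (adjusted p = 0.071) and -1.40 (0.113).

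Spp1 missed the threshold in the class (-0.92 ± 0.27, adjusted p = 0.057). It stood at 1275, 1089, 1320.4 and 1800.4 CPM in iKO and at 3126, 2727, 1219 and 3021 in controls, where control 3 alone lay within the iKO range; without control 3 the difference was -1.15 (adjusted p = 0.013). Spp1 also passed with no low-count filter (-0.88, 0.043), by DESeq2 (-0.92, 0.011), with a replicate block (-0.85, 0.045), with the stricter gate (-0.98, 0.042) and without cells holding a melanocyte UMI (-1.14, 0.045). Within the Arg1-positive gate the difference was -0.01 ± 0.34. The share of Arg1-positive cells in the class, given above, was lower in every iKO than in every control sample. In the Vcan/Chil3 monocytes Spp1 stood at 462 to 2728 CPM in iKO and 1621 to 3326 in controls, and did not pass. After thinning, 16.2% to 19.8% of these cells held Spp1 in iKO samples and 25% to 46.7% in controls. Its mean level was also lower in iKO in the Cxcl9/Cxcl10-positive and Ms4a7/Adgre1 gates, where the groups overlapped. The part of gate shares in the class difference was not tested. Neutrophils held 142 to 2423 in iKO and 569 to 6497 in controls, so Spp1 UMIs were not limited to the macrophage gates.

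None of the fatty acid genes passed the genotype test in the class or in any of the 4 gates. Fabp5 stood at 706, 757, 1336 and 1116 in iKO and at 991, 1805, 1101 and 2576 in control samples over the class (-0.78 ± 0.31, adjusted p = 0.13). Within the Ms4a7/Adgre1 gate it stood at 876, 749, 1903 and 1188 against 1843, 2075, 1339 and 3725 (-0.95 ± 0.33, adjusted p = 0.15), and passed without iKO 3 (-1.25, 0.042) and with no low-count filter (-0.90, 0.049). Fabp5 in the Cxcl9/Cxcl10-positive gate differed by -0.34 ± 0.33 (adjusted p = 0.59), but by -0.84 without iKO 3 (0.037) and -0.77 without cells holding a melanocyte UMI (0.016), and in the Arg1-positive gate it passed without control 1 (-0.73, 0.034). Dendritic cells held 1862 to 4823 in iKO and 2386 to 3586 in controls. Lpl lay between 187 and 379 across the iKO samples and between 161 and 486 across the controls (0.06 ± 0.36, adjusted p = 0.94), with control 4 the highest sample. Cd36 lay between 68.9 and 87.5 and between 60.9 and 164 (-0.31 ± 0.30, adjusted p = 0.52). Cd36 in the Ms4a7/Adgre1 gate stood at 116 to 146 in iKO and 43.8 to 133 in controls, the only positive member difference there (0.57 ± 0.26, adjusted p = 0.25).

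Cycling cells were too few to test. The 35 iKO and 18 control cells of the cycling gate, pooled over samples, had 2660 and 3478 C1qa CPM (exact 95% Poisson intervals 2558 to 2765 and 3303 to 3660, which cover counting error only). Apoe stood at 3351 and 3661 there, and Spp1 at 318 and 148. Of these iKO cells 14 came from sample 3, 16 from sample 4, 2 from sample 1 and 3 from sample 2. The 58 iKO and 25 control cells positive for both Arg1 and the chemokines had 5200.0 and 3590.2 of Spp1 and 812 and 3135 of Apoe. Here iKO 1 and 2, the samples with low Apoe, gave 23 and 29 of the cells and iKO 3 and 4 gave 3 each, so the pooled values weigh the samples unequally.

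Genes of the same pathways were read from lists that left the members out, beside the 11.8% of genes called in the class (6.4% higher, 5.36% lower). Of the complement list 14 of 18 genes were tested in the class; Cfb, the factor B of the alternative pathway, rose by 2.10 ± 0.38 and Cd93 fell by 0.66 ± 0.15, and the list's median was 0.03. Cfb also rose in the Arg1-positive cells (2.62), the Cxcl9/Cxcl10-positive cells (1.10) and the monocytes (2.21). Of 22 lipid-associated and phagocytic genes 3 rose, Axl (1.04 ± 0.24), Ctsz (0.46 ± 0.12) and Grn (0.46 ± 0.07), and Mertk fell by 1.51 ± 0.34. Axl and Mertk are related receptors for dying cells, and they moved in opposite directions. In the Cxcl9/Cxcl10-positive gate 4 of 20 tested fell and 0 rose, beside 3.21% of genes called lower there: Cd63 (-2.41), Mertk (-1.90), Ctsd (-0.68) and Creg1 (-0.61), with a list median of -0.21. In the Vcan/Chil3 monocytes 4 of 20 rose, Axl (1.72), Npc2 (0.56), Grn (0.56) and Psap (0.40), and 2 fell, Mertk (-1.56) and Cd63 (-1.49), beside 3.61% of genes called lower, with a median of 0.15. Those of these genes not named for the class were named after their values were seen. In the Ms4a7/Adgre1 gate Mertk alone of 21 was called (-1.73), and in the Arg1-positive gate 0 of 19.

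Of 20 lipid handling genes tested in the class, Abca1, the cholesterol exporter that loads apolipoprotein E, fell by 0.81 ± 0.15 and Lrp1, a receptor for apolipoprotein E, by 0.35 ± 0.10, and none rose. Abca1 was also lower in the Cxcl9/Cxcl10-positive gate (-1.35). Of 17 transcription factors Pparg (1.15 ± 0.17), Nr1h3 (0.94 ± 0.20), which encodes the sterol receptor LXR alpha, and Spi1 (0.59 ± 0.14), which encodes PU.1, rose, and Bhlhe40 fell by 1.03 ± 0.13. Of 8 osteopontin receptor genes Itgav rose (0.38 ± 0.07) and none fell. The list medians were 0.03, 0.07, 0.03 and 0.17 for the phagocytic, lipid handling, transcription factor and receptor lists.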

How the data were processed

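The authors deposited 1 matrix of UMI counts per hashtagged sample, made with Cell Ranger 7.1.0 on GRCm39, per the submitters' processing notes; the values are whole-number counts, not normalized. From these, cells with at least 300 genes and at most 10% mitochondrial UMIs were kept, and cells with a Scrublet score above 0.25 were removed (438 cells). Cells were thinned to 2000 UMIs for gating only, which left out 653 shallower cells (246 iKO, 407 control); median depth per barcode was 12535.5 to 14221 UMIs in iKO and 5794 to 11490 in control samples.

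Unthinned counts were summed per sample and gate (at least 20 cells) and tested with edgeR 4.0.16 (quasi-likelihood, TMM, filterByExpr) in R 4.3.3, with Benjamini-Hochberg adjustment over all genes tested and a threshold of 0.05. Comparisons between gates had sample as a block. The test was also run on simulated counts in which 200 genes changed 4-fold, for the class and the 4 gates. It recovered 92% to 96% of them, and 3.13% to 6.93% of its calls were false. Smaller changes were not simulated. Alternatives were RLE scaling, no low-count filter, DESeq2 1.42.0, a replicate block, stricter gates, no thinning, no doublet removal, a 5% mitochondrial limit, cells without UMIs of other lineages, clusters (scanpy 1.11.5), and leaving out each sample. Removing macrophage-marker cells from the monocyte gate, fits within 1 genotype alone and the gate-by-genotype term of the Cxcl9/Cxcl10-positive gate were added after seeing the data.

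All 10 members are named. Of each list at most 3 genes called higher and 3 called lower in the class are named, and as most alike the genes with the highest Pearson's r among those with a mean of at least 20 CPM. The members and lists were chosen with earlier results of these data known. Promoter sequences are RefSeq's, on GRCm38.p6, and were not converted to the build of the counts. Intervals cover counting error only.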

Additional observations from a re-analysis of the deposited data

Results flagged for a closer look

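Of 100 groups of 4 samples examined, 7 had a sample far from the other 3, where chance gives about 1 in 20. C1qa in the Vcan/Chil3 monocytes of control 4 stood at 388.5 CPM, with the other controls at 146 to 179.9. C1qc in the same gate of iKO 3 stood at 92.0, with the others at 63.3 to 67.2. In the Ms4a7/Adgre1 macrophages C1qc stood at 2435 in control 1 (others 1208 to 1364) and at 1963 in iKO 3 (others 1129 to 1250.3). Fabp5 in the Cxcl9/Cxcl10-positive cells of control 4 stood at 1566, with the others at 942 to 1012. Lpl stood at 512.8 in the Arg1-positive cells of control 4 (others 93.7 to 144.6) and at 344.3 in the Cxcl9/Cxcl10-positive cells of iKO 4 (others 214.6 to 235.7).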

How the results depend on the processing

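Of the single-member values recomputed under the alternatives, 1139 kept their direction and their side of the threshold, 32 came to pass it, 48 no longer passed and 61 changed sign. The cause of these changes was not tested. Members called in the class (1) numbered 3 with no low-count filter and by DESeq2, 2 with a replicate block and with the stricter gate, 0 without thinning, without cells holding a UMI of another lineage and with clusters in place of the gate, and 0 to 1 with each sample left out. With each sample left out they numbered 0 to 1 in the Arg1-positive gate, 2 to 7 in the Cxcl9/Cxcl10-positive gate, 1 to 4 in the Vcan/Chil3 monocytes and 0 to 2 in the Ms4a7/Adgre1 gate. The replicate block called 1 in the Arg1-positive gate, no thinning called 1 in the monocytes, and no low-count filter called 2 in the Ms4a7/Adgre1 gate. For the Cxcl9/Cxcl10-positive gate against the monocytes 8 were called with no filter and 3 in iKO samples alone. For the gate-by-genotype terms, no filter called 2, 6 and 8 in the Arg1-positive, Vcan/Chil3 and Cxcl9/Cxcl10-positive gates. The share of all genes called in those fits is not given here. Genes called in the class numbered 1362, 665 without cells holding a UMI of another lineage, 2017 by DESeq2, and 426 to 1604 with each sample left out.

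Sign changes fell on values that had not passed. In the class, Lpl was -0.0020 without melanocyte-UMI cells and -0.0036 with clusters. In the Arg1-positive gate without thinning, C1qa, C1qb and C1qc were -0.096, -0.079 and -0.073; with the stricter gate C1qc was -0.0021 and Lpl -0.32; Spp1 was 0.15 with the replicate block and Lpl -0.083 without melanocyte-UMI cells. In the Cxcl9/Cxcl10-positive gate Spp1 was 0.13 without thinning, and Cd36 was 0.011 with no filter, 0.038 by DESeq2, 0.047 with the replicate block and 0.43 without thinning. In the monocytes Gpnmb was 0.42 with the stricter gate and 0.056 without melanocyte-UMI cells, Lpl was 0.0045 without thinning, and without cells holding a UMI of another lineage, in a fit that lacked iKO 3 and control 2, Spp1, Lpl and Cd36 were 0.45, 0.98 and 1.78. In the Ms4a7/Adgre1 gate Spp1 was 0.032 without thinning. Against the monocytes, Gpnmb and Fabp5 in the Cxcl9/Cxcl10-positive gate were -0.59 and -0.051 in iKO samples alone, Fabp5 was -0.10 with the stricter gate, and Spp1 in the Ms4a7/Adgre1 gate was 0.37 with the stricter gate and 0.0016 in iKO samples alone.

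With each sample left out, sign changes gave these ranges. In the Arg1-positive gate C1qa ran from -0.038 to 0.55, C1qb from -0.072 to 0.39, C1qc from -0.052 to 0.49, Cd36 from -0.26 to 0.24, Lpl from -0.45 to 0.97 and Spp1 from -0.26 to 0.46. In the Ms4a7/Adgre1 gate C1qc ran from -0.41 to 0.055, Lpl from -0.32 to 0.23 and Spp1 from -0.53 to 0.043. In the Cxcl9/Cxcl10-positive gate Cd36 ran from -0.27 to 0.53 and Lpl from -0.65 to 0.023. In the class Cd36 ran from -0.48 to 0.12 and Lpl from -0.11 to 0.57, and in the monocytes Gpnmb from -0.30 to 0.27 and Lpl from -0.58 to 0.31. Against the monocytes, Fabp5 and Gpnmb in the Cxcl9/Cxcl10-positive gate ran from -0.15 to 0.10 and from -0.10 to 0.57, and Lpl in the Arg1-positive gate from -0.034 to 0.37.

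Same-numbered samples had correlations of 0.219, -0.113, -0.056 and 0.168 of their deviations, so the numbers do not pair the samples. Leaving out cells with a UMI of another lineage could not be run in the Arg1-positive, Cxcl9/Cxcl10-positive and Ms4a7/Adgre1 gates, for too few cells. A fit of only the macrophage-marker cells of the Cxcl9/Cxcl10-positive gate could not be run for the same reason. Removing the macrophage-marker cells from that gate was not run. DESeq2 was not run for the gate-by-genotype terms.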
